A study of Mus musculus with 16 samples.

Results

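The effect of ruboxistaurin (RBX) on the aortic transcriptome was measured as an average over diabetes status, that is, over mice with and without diabetes. For each gene the mean log2 signal of the RBX groups was set against the mean of the groups without RBX, and the gene was kept where its difference had the same direction in diabetic and in non-diabetic mice. Of 11036 genes tested, 6099 (55.3%) met this rule, 3039 higher and 3060 lower under RBX in both strata. The direction rule reads measured values, so the agreement of direction among the kept genes is a property of the choice and is not a result.

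All 16 mice lacked apolipoprotein E (APOE-/-), which makes mice prone to atherosclerosis, came from 1 vendor and ate a high fat diet for 10 weeks from 8 weeks of age. They fell into 4 groups of 4: non-diabetic without RBX, non-diabetic with RBX in the diet, diabetic without RBX, and diabetic with RBX in the diet. Diabetes had been induced with streptozotocin (STZ), a beta-cell toxin, at 6 weeks of age, and the whole aorta was taken at 18 weeks, 1 array per mouse. The dose of RBX, the sex of the mice and their glucose values are not given in the sources used here, and no group on a normal diet or with normal Apoe was compared.

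RBX (LY333531) inhibits protein kinase C beta, a kinase switched on by diacylglycerol. When glucose is high, vascular cells make more diacylglycerol, and this kinase has been tied to contraction, permeability, oxidant formation and leukocyte adhesion in the vessel wall. Heat shock chaperones, described first below, are a separate system: the transcription factor HSF1 switches their genes on when proteins unfold, by binding inverted repeats of the bases GAA in their promoters, and the chaperones HSP70, HSP40 and HSP90 with their co-chaperones then refold or clear the damaged proteins.

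Averaged over diabetes status, 936 genes rose under RBX and 911 fell with the same direction in both strata at an adjusted p under 0.05 (limma with Benjamini-Hochberg adjustment), which were 8.48% and 8.25% of the genes tested. A further 352 genes passed the averaged test with opposed directions in the strata and were not kept. Over 2-fold changes were few, with 26 rises and 23 falls. The median averaged difference over all genes tested was 0.0058 on the log2 scale.

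The kept calls were carried unequally by the strata. Between RBX mice and their controls, 3493 genes (31.7%) passed the test in the non-diabetic mice and 5 genes (0.0453%) in the diabetic mice, where 1014 genes had an unadjusted p under 0.05. The interaction test, which asks whether the RBX effect differs with diabetes, called 1273 genes (11.5%) and 772 without diabetic mouse 3. With the signal of a hybridisation control named cre as a covariate, both the non-diabetic count and the interaction count were 0, and with the 3′ to 5′ ratio of Actb they were 174 and 341. Among the 1847 kept calls, 1674 (90.6%) had the larger difference in the non-diabetic mice, with a median size of 0.598 there and 0.197 in the diabetic mice on the log2 scale, and 401 had a called interaction. The 2 strata share no array, and over all genes tested the correlation of their RBX effects was 0.116, a description only.

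**Figure D1:**
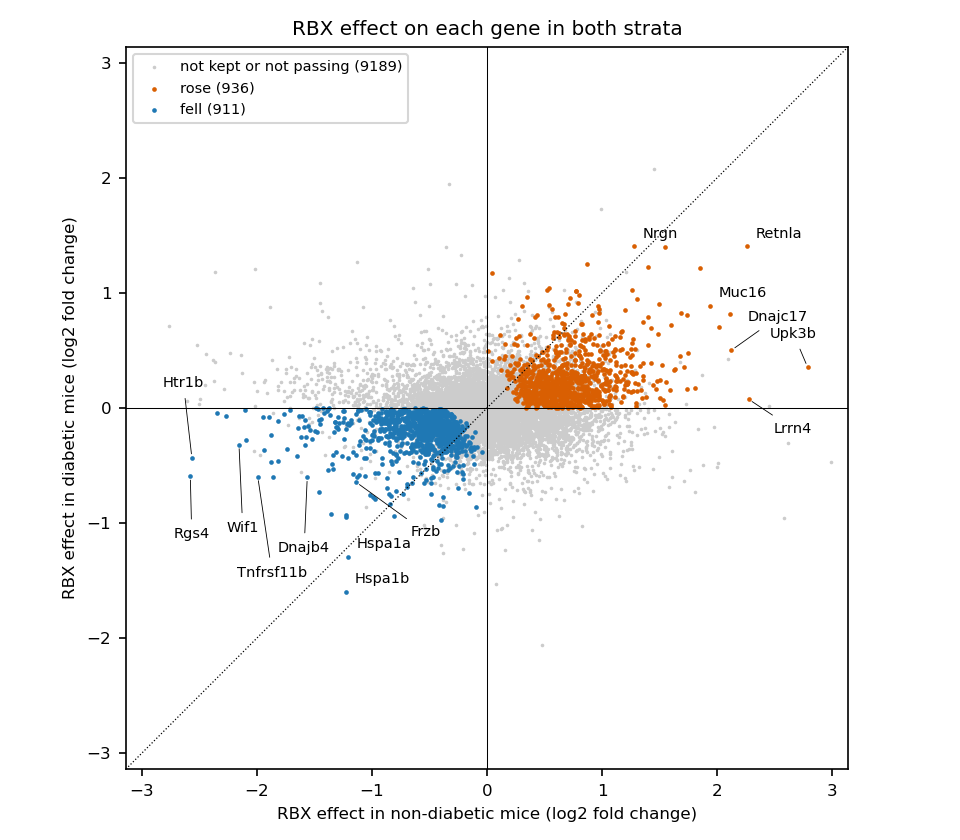
Each point is 1 of 11036 genes, with the RBX effect in non-diabetic mice on the x axis and in diabetic mice on the y axis, both as log2 fold change (4 mice against 4). Orange points are the 936 genes that rose and blue points the 911 that fell with the same direction in both strata; the dotted line marks equal effects, and most coloured points lie nearer the x axis, while Hspa1a, Hspa1b and Nrgn lie near the line.

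The 4 arrays of non-diabetic RBX mice stood apart in their technical controls. The cre hybridisation control, a bacteriophage transcript spiked into every sample, averaged a signal of 187700 without and 430027 with RBX in the absence of diabetes, and 237370 without and 274245 with RBX in diabetes. The Actb control probe sets at the transcript's 3' and 5' ends give a log2 ratio that rises with degraded RNA or short labelled product, and it averaged 1.04, 2.08, 1.34 and 1.71 in the same order. In exact two-sided permutation tests of 4 arrays against 4, where 0.0286 is the smallest p possible, RBX arrays differed in the non-diabetic stratum for cre (p = 0.0286) and for Actb (p = 0.0286), each at an adjusted p of 0.0572 over 8 tests. In the diabetic stratum the exact permutation p was 0.114 for cre and 0.0571 for Actb. The Gapdh ratio gave exact permutation p-values of 0.2 and 0.0571. The median signal over all probe sets was higher with RBX by 0.29 without and by 0.10 with diabetes on the log2 scale (exact permutation p = 0.0286 each).

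**Figure D2:**
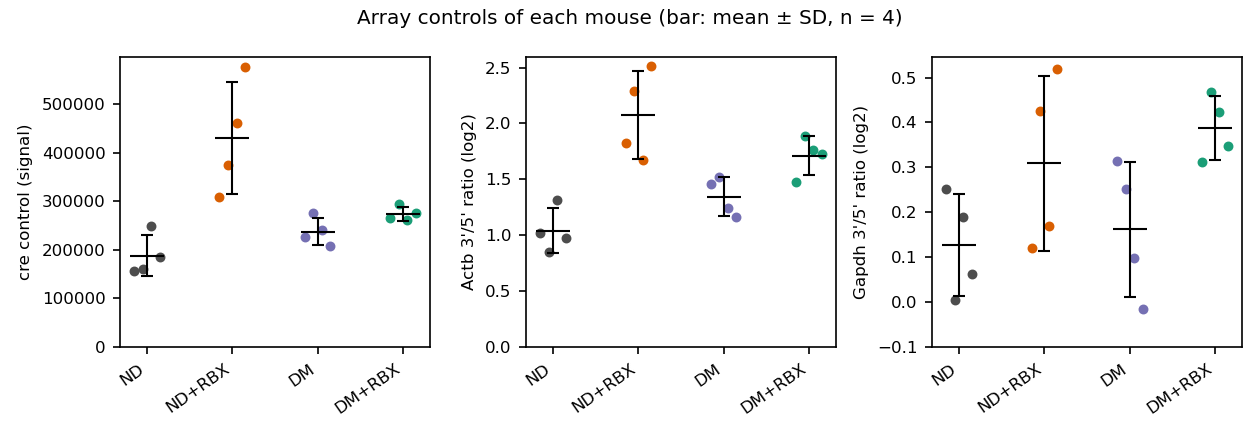
Points are the 4 mice of each group (ND non-diabetic, DM diabetic), with the signal of the cre control and the log2 3'/5' ratios of the Actb and Gapdh controls on the y axes; bars are mean ± SD. All 4 non-diabetic RBX arrays lie above the 4 non-diabetic control arrays for cre and Actb, and the Gapdh ranges overlap.

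These measures averaged higher with RBX in both strata, so they changed together with the groups compared. The cre, Actb and median signal differences were larger without diabetes. The Gapdh log2 ratio differed by 0.18 without and 0.23 with diabetes. With the cre signal as a covariate 5 genes rose and 7 fell, and with the Actb ratio none passed in limma, while 1596 and 1560 genes had an unadjusted p under 0.05. Of the 1847 kept calls, 1766 and 1761 kept their sign under these covariates, with a median size of 0.302 and 0.301 in place of 0.404 and a median standard error of 0.17 and 0.177 in place of 0.097. Hspa1b, Frzb, Pdgfc and Opcml were among the 12 genes that passed with the cre covariate. The part of RNA quality or labelling in the changes was not tested. The 23 measured smooth muscle markers had a summed signal of 613395 to 1115346 per array, and 24 measured macrophage markers one of 669116 to 1489174. These sums do not test the tissue label.

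Heat shock chaperones and their co-chaperones fell. Of 41 genes on the list, 37 were on the array and 35 were measured above the signal filter; 20 of these (57.1%) fell and 0 rose, against 8.25% of all genes falling. Their median difference was -0.31 averaged, -0.24 in diabetic mice and -0.38 in non-diabetic mice, on the log2 scale, against 0.0058, -0.018 and 0.032 over all genes. This was also the list with most calls in the diabetic stratum taken alone. Of the 5 genes called there, 4 were the heat shock genes Hspa1b, Hspa1a, Dnajb1 and Dnaja1, which fell, and the other was Son, which rose on the probe set used and stood at an averaged -0.20 with the mean over its probe sets. That count of 5 was 1 without diabetic mouse 3, diabetic mouse 4 or diabetic RBX mouse 1 and 15 without non-diabetic RBX mouse 1 or 4. It was 1 without the intensity trend, 2 with the mean over probe sets and 36 with array weights.

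The promoters of 3 of the genes that fell are shown because they hold matches to the inverted repeat of the heat shock element. Windows run from 250 bases before to 50 after the annotated start in RefSeq on GRCm38.p6, written 5' to 3' along the gene, with matches to GAANNTTC or TTCNNGAA in capitals (overlapping matches run together; each motif is its own reverse complement, so both strands were covered).
Hspa1b, chr17:34959189-34959488, minus strand: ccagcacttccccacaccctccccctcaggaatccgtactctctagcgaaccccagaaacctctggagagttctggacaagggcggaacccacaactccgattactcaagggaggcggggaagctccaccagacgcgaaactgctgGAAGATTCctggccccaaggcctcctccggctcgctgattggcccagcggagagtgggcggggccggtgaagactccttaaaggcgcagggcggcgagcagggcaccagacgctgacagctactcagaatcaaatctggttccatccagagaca
Hsph1, chr5:149636287-149636586, minus strand: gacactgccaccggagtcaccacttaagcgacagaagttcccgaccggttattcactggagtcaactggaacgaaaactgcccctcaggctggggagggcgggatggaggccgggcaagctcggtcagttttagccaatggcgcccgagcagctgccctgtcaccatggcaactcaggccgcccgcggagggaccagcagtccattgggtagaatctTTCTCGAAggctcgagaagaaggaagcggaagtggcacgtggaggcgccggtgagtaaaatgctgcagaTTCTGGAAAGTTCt
Chordc1, chr9:18292017-18292316, plus strand: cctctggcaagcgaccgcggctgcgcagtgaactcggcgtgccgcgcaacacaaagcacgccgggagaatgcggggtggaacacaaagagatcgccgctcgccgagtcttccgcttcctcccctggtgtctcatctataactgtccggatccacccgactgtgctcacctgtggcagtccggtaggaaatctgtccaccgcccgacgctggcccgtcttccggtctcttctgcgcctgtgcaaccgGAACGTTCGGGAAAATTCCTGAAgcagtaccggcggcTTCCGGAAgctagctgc
The Hspa1b window held 1 match, Hsph1 3 and Chordc1 5. The Hspa1a window (chr17:34972107-34972406, minus strand) equalled that of Hspa1b at 296 of 300 bases and also held 1. Of the 20 heat shock genes that fell, all with a window, 10 held a match, against 14% of 8945 tested genes with a window and 15.1% of all 32851 windows of that length. Hspa1a and Hspa1b, nearly equal in sequence, were counted apart. No share was taken for the listed heat shock genes that did not fall, so these shares do not tie a match to the fall. A match describes the letters in the window and does not show that a factor bound there.

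Hspa1b and Hspa1a encode the inducible HSP70, the chaperone most sharply induced by protein damage. Hspa1b had signals of 15254, 13457, 13518 and 21312 in the untreated non-diabetic mice, 5336, 7230.4, 7278 and 7052 with RBX, 22169.9, 25615, 33070.4 and 40479.6 in the untreated diabetic mice and 9031, 9502, 11186 and 9488 with RBX. In both strata every RBX mouse lay below every control, and the untreated diabetic mice held the highest signals. Averaged over diabetes status Hspa1b fell by 1.41 ± 0.12 (log2 fold change ± SE, limma adjusted p = 8.54e-06), with -1.60 in diabetic and -1.23 in non-diabetic mice, and the interaction did not pass (adjusted p = 0.341).

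Hspa1a had signals of 4424, 5278, 3801 and 6842 in the untreated non-diabetic mice, 2329, 2017, 2262 and 2012 with RBX, 6238, 5725, 10447 and 9014 in the untreated diabetic mice and 2547, 3175, 3262 and 3549.7 with RBX. Here too the groups did not overlap in either stratum. Hspa1a fell by 1.25 ± 0.13 (limma adjusted p = 3.59e-05). The paralogs are nearly identical, so the probe sets of Hspa1a and Hspa1b may read each other's transcripts.

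Among the partners of HSP70, Hsph1 encodes HSP110, which exchanges its nucleotide and holds unfolded clients. Hsph1 had signals of 8329.9, 8405, 7293 and 13379 in the untreated non-diabetic mice, 3833, 4346, 4471 and 4010.4 with RBX, 7801, 7608, 8151 and 10302 in the untreated diabetic mice and 5499, 5733, 5632 and 5376 with RBX. The diabetic RBX mice lay within a narrow range below all controls, and the non-diabetic RBX mice lay below theirs. Hsph1 fell by 0.86 ± 0.10 (limma adjusted p = 6.31e-05).

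The HSP40 co-chaperones, which deliver clients to HSP70, gave 5 called members. Dnajb4 had signals of 18922, 17596, 15756 and 21662 in the untreated non-diabetic mice, 5693, 5648, 6209 and 7517 with RBX, 21019.7, 16992, 14382 and 22655 in the untreated diabetic mice and 15955, 12569.5, 13476 and 8139 with RBX. The non-diabetic groups were separated, and in the diabetic stratum the ranges overlapped. Dnajb4 fell by 1.08 ± 0.13 (limma adjusted p = 5.57e-05), and its fall was larger without diabetes (interaction adjusted p = 0.0198). A probe set of Dnajb4 under the signal filter differed in the opposite direction (0.81 at an unadjusted p of 0.00779). Dnaja1 fell by 0.61 ± 0.10 and Dnajb1 by 0.45 ± 0.08, with -0.85 in diabetic against -0.38 in non-diabetic mice for Dnaja1 and -0.74 against -0.16 for Dnajb1. The difference between strata passed the interaction test for Dnajb1 (adjusted p = 0.0325), which went against the usual pattern of larger effects without diabetes, and did not pass for Dnaja1 (0.13). Dnaja2 and Dnaja4 also fell, by 0.19 ± 0.06 and 0.50 ± 0.16, and lost their calls in 4 and 5 of 16 fits with 1 array left out.

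Of the HSP90 co-chaperones and their relatives, 6 fell. Chordc1, which binds HSP90 through its zinc-binding CHORD domains, had signals of 5744, 5409, 4648 and 6417 in the untreated non-diabetic mice, 3411, 3042, 4039 and 3730.4 with RBX, 6772, 5568, 5687 and 6766 in the untreated diabetic mice and 4254, 3966, 4092 and 3964 with RBX. No RBX mouse reached a control of its stratum, and the differences were nearly equal at -0.60 and -0.64. Chordc1 fell by 0.62 ± 0.08 (limma adjusted p = 0.000107). Ahsa2, which belongs to a family of activators of the HSP90 ATPase, fell by 0.53 ± 0.09 and Cacybp, a calcyclin-binding protein, by 0.44 ± 0.07, again with no overlap in either stratum. Stip1, which bridges HSP70 and HSP90, fell by 0.40 ± 0.12 and missed the threshold without non-diabetic mouse 4. Ahsa1 and Fkbp4 fell by 0.21 ± 0.07 and 0.31 ± 0.10, lost their calls in 9 and 10 of 16 fits with 1 array left out, and a second probe set of Fkbp4 moved the other way (0.38, unadjusted p = 0.0416).

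The remaining falls covered other chaperone classes. Hspa2, an HSP70 of the testis that other tissues also express, fell by 0.85 ± 0.12 with no overlap in either stratum, and Hspa4l, an HSP110 relative, fell by 0.77 ± 0.15. Bag2 and Bag3, nucleotide exchange partners of HSP70, fell by 0.53 ± 0.12 and 0.24 ± 0.07. Hspd1, the mitochondrial HSP60, fell by 0.21 ± 0.07 and Tcp1, a subunit of the cytosolic chaperonin, by 0.18 ± 0.06. Bag3, Hspd1 and Tcp1 lost their calls in 6, 5 and 12 of 16 fits with 1 array left out. The constitutive HSP70 Hspa8 did not pass, with 0.08 averaged and an adjusted p of 0.568.

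Not all chaperones shared the direction. The small heat shock protein Hspb1, abundant in smooth muscle, had signals of 46875, 46717, 37389 and 54052 in the untreated non-diabetic mice, 24664, 23600.2, 13632 and 12043 with RBX, 23200.5, 28638, 30636 and 32532 in the untreated diabetic mice and 54514, 41316, 53281 and 49833 with RBX. RBX mice were below all controls without diabetes and above all controls with diabetes. Its averaged difference of -0.29 ± 0.14 did not pass (adjusted p = 0.136) and its interaction did (adjusted p = 0.000205), so it was not kept. Hsp90aa1 and Dnajb5 passed the averaged test at -0.38 and -0.42 with opposed directions in the strata and were not kept either. The count of 20 was 12 without non-diabetic mouse 4, 1 with the cre covariate and 0 with the Actb covariate. Under these covariates 19 of the 20 stayed below 0, with 13 and 12 at an unadjusted p under 0.05.

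**Figure D3:**
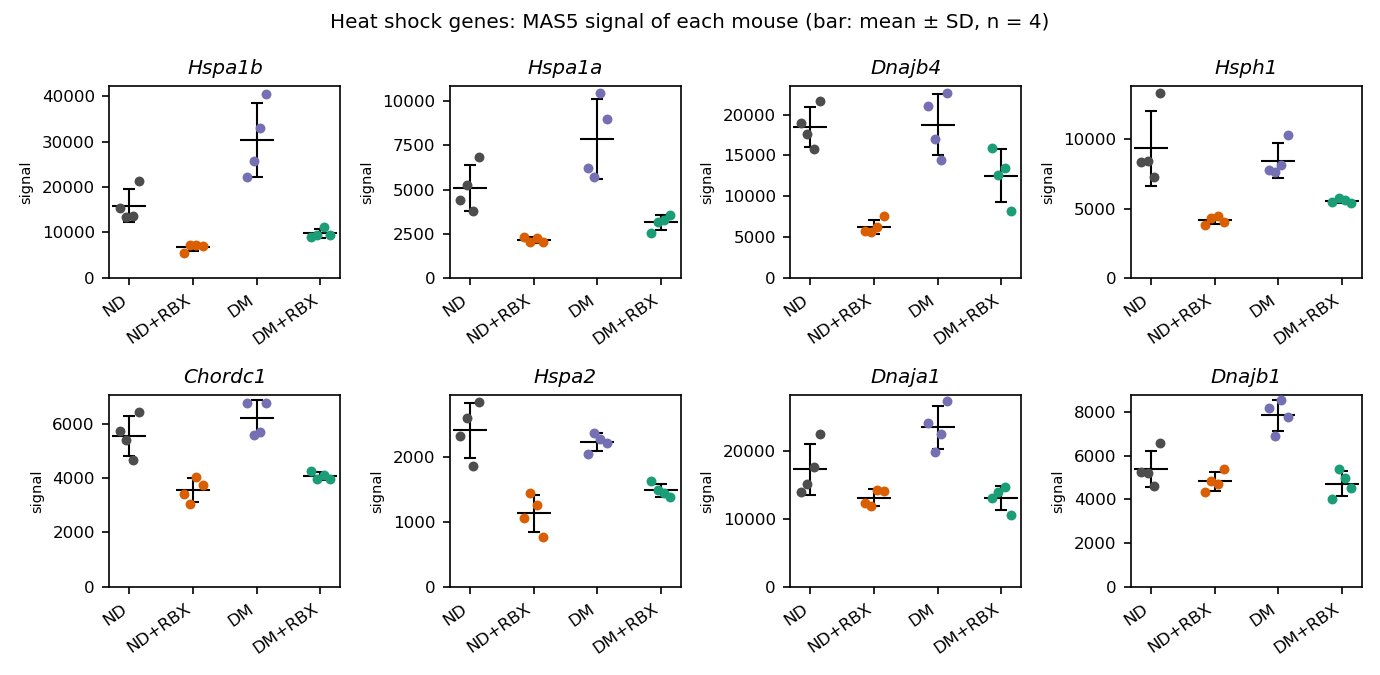
MAS5 signal (y axis, linear) of 8 heat shock genes in each of the 4 mice per group (ND non-diabetic, DM diabetic); bars are mean ± SD. For Hspa1b, Hspa1a, Hsph1, Chordc1 and Hspa2 the RBX points lie below the control points in both strata, and for Dnajb1 and Dnaja1 only in the diabetic stratum.

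Beyond chaperones, the largest falls had mixed identities, and several were deeper without diabetes. Rgs4, which shortens the signal of G protein-coupled receptors of contraction, had signals of 3089, 3394, 2329 and 5598 in the untreated non-diabetic mice, 604, 630.5, 918 and 308 with RBX, 3230.1, 3385, 2154 and 3897 in the untreated diabetic mice and 2481, 2497, 2568 and 1125 with RBX. The non-diabetic RBX mice lay far below their controls, and in diabetic mice the ranges overlapped with 1 low RBX mouse. Rgs4 fell by 1.58 ± 0.23 (limma adjusted p = 0.000229), the largest fall of a named gene that was kept, with -2.58 against -0.59 by stratum and an interaction adjusted p of 0.0102.

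Htr1b, a serotonin receptor of vascular smooth muscle, had signals of 6445, 6337, 7194 and 9528 in the untreated non-diabetic mice, 857, 1183, 1645 and 1378 with RBX, 8043, 6245, 2808 and 5826 in the untreated diabetic mice and 6641, 3188, 4053 and 2879 with RBX. Only the non-diabetic groups were separated. Htr1b fell by 1.498 ± 0.21 (limma adjusted p = 0.000164), and its stratum values of -2.56 and -0.43 differed (interaction adjusted p = 0.00315). Its other measured probe set gave an averaged -0.2 (limma unadjusted p = 0.359). Other falls without overlap in the non-diabetic stratum were the potassium channel Kcnj15 at -1.19 ± 0.20, the GABA transaminase Abat at -1.15 ± 0.17, the hydroxysteroid dehydrogenase Akr1c14 at -1.14 ± 0.22, the ubiquitin ligase subunit Fbxo30 at -1.17 ± 0.24, the membrane-scission protein Chmp4c at -1.19 ± 0.24, the phosphodiesterase Pde3a at -1.23 ± 0.39 and the non-coding transcript Prdm16os at -1.14 ± 0.30. Kcnj15, Abat and Chmp4c had a called interaction, whereas Pde3a lost its call in 7 of 16 fits with 1 array left out and its other 2 probe sets, both under the filter, differed upwards. Mean signals of Prdm16os with RBX were 307 without and 288 with diabetes, under the filter signal of 383, against 814 and 479 in controls. The joint lubricant Prg4 fell by 1.10 ± 0.26 and the collagenase Mmp13 by 1.09 ± 0.30, both with overlapping non-diabetic groups, and Mmp13 was below all controls in diabetic mice.

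Some regulators of calcification and Wnt signalling fell. Of 24 listed genes 15 were measured. Of these 5 fell (33.3%, against 8.25% of all genes) and 0 rose (against 8.48%), with a median averaged difference of -0.20. Tnfrsf11b encodes osteoprotegerin, the decoy receptor of RANKL that protects arteries from calcification, and it had signals of 8251, 5494, 5325 and 4445 in the untreated non-diabetic mice, 1148, 2259, 1446 and 1146 with RBX, 3928, 3133, 2918 and 4123 in the untreated diabetic mice and 1954, 2420.4, 2545 and 2360.0 with RBX. RBX mice were below controls in both strata. Tnfrsf11b fell by 1.29 ± 0.15 (limma adjusted p = 5.07e-05), with -1.99 and -0.59 by stratum (interaction adjusted p = 0.00541).

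Frzb, a secreted decoy of Wnt ligands, had signals of 12252, 12925, 13159 and 9365 in the untreated non-diabetic mice, 4411, 5718, 6551 and 5054 with RBX, 9938, 11414, 10842 and 11954 in the untreated diabetic mice and 6799.8, 8291, 7839.9 and 5586 with RBX. The groups did not overlap in either stratum. Frzb fell by 0.89 ± 0.10 (limma adjusted p = 5.03e-05) and its interaction did not pass (0.113). Wif1, another secreted Wnt inhibitor, had signals of 3740.3, 3426, 3187 and 3776 in the untreated non-diabetic mice, 789.6, 864, 969 and 594 with RBX, 2160.5, 2686, 2476 and 3696 in the untreated diabetic mice and 2310.3, 2384, 2475 and 1616 with RBX. Separation was complete only without diabetes, and the interaction passed (adjusted p = 0.000309) beside an averaged fall of 1.24 ± 0.13. Ank, which exports pyrophosphate, an inhibitor of mineral growth, fell by 0.67 ± 0.09 with no overlap in either stratum, and the Dickkopf family member Dkk3 fell by 0.73. Sost, the Wnt inhibitor sclerostin, passed with opposed directions (-2.52 without and 0.55 with diabetes) and was not kept.

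Among rises, Retnla was the largest of a named gene. It encodes RELM alpha, a secreted product of alternatively activated macrophages that fat tissue also expresses, and it had signals of 3647, 2261, 3004 and 4046 in the untreated non-diabetic mice, 36785, 18009, 15084 and 5293 with RBX, 3865, 4738, 9433 and 2093 in the untreated diabetic mice and 15179, 7661, 13037 and 11872 with RBX. All non-diabetic RBX mice exceeded their controls, over a wide range, and in the diabetic stratum 1 control lay inside the RBX range. Retnla rose by 1.83 ± 0.32 (limma adjusted p = 0.000896), with 2.26 and 1.41 by stratum and no called interaction (0.414). Of 13 measured white fat markers 1 rose, against 8.48% of all genes. Their summed signal ran from 182104 to 318817 in non-diabetic controls and 304770 to 687544 with RBX. In diabetic mice it ran from 222951 to 328246 without and 237513 to 380713 with RBX. The part of this signal in the Retnla change was not tested.

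Nrgn, neurogranin, is a calmodulin-binding substrate of protein kinase C that platelets also carry. It had signals of 729, 730.3, 1198 and 626 in the untreated non-diabetic mice, 2576, 1149, 1719 and 2701 with RBX, 426, 428, 590.3 and 309 in the untreated diabetic mice and 945, 895, 983 and 1964 with RBX. The diabetic groups were separated, and the non-diabetic groups overlapped by 1 mouse. Nrgn rose by 1.34 ± 0.22 (limma adjusted p = 0.00049), nearly equally in diabetic (1.40) and non-diabetic (1.28) mice.

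Some platelet and granulocyte transcripts also rose. On the list of blood cells and platelets 6 of 15 genes were measured and 4 rose (66.7%, against 8.48% of all genes). The median difference was 0.87 averaged, 0.46 in diabetic and 1.24 in non-diabetic mice. The platelet chemokine Ppbp rose by 1.15 ± 0.30, the platelet integrin Itga2b by 0.77 ± 0.17 and the calprotectin subunits S100a9 and S100a8 of neutrophils and monocytes by 0.97 ± 0.21 and 0.65 ± 0.18. The red cell genes Slc4a1 and Alas2 did not pass, with 1.08 and -0.21. Clec1b, a platelet receptor, rose by 1.47 ± 0.49, a call lost in 10 of 16 fits with 1 array left out. Summed over the 6 measured genes, the signal ran from 6346 to 15528 in non-diabetic controls, 13771 to 24736 with RBX, 7562 to 11991 in diabetic controls and 8808 to 18291 with RBX, so the ranges overlapped in both strata. With the Actb ratio as a covariate the list had 0 rises, a median of 0.22 and a non-diabetic median of -0.023, and Itga2b stood at -0.059; with cre the list had 0 rises and a median of 0.42. How much blood each aorta held was not measured.

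Some mesothelial markers also rose. Mesothelium is the cell layer that lines the body cavities. Of 7 measured markers 3 rose (42.9%, against 8.48% of all genes), or 1 without diabetic mouse 1. Krt18, Upk1b, Krt8 and Epcam did not pass, at 0.37, 1.15, 0.72 and 0.23. Their diabetic differences were -0.097, -0.305, 0.389 and -0.374, and Epcam had a called interaction (adjusted p = 0.0408). The uroplakin Upk3b had signals of 273, 197, 875 and 598 in the untreated non-diabetic mice, 5096, 3564, 1668 and 2106 with RBX, 474, 597, 2568 and 1760.3 in the untreated diabetic mice and 2484, 639, 1315 and 1637 with RBX. Separation was limited to the non-diabetic stratum, and the diabetic groups shared nearly the same range. Upk3b rose by 1.57 ± 0.39 (limma adjusted p = 0.00959). The mucin Muc16 rose by 1.41 ± 0.29 and Lrrn4 by 1.18 ± 0.33, the latter with a called interaction (0.0357) and a diabetic difference of 0.08. Mean signals of Muc16 were 241 in non-diabetic and 353 in diabetic controls, under the filter signal of 383, and 866 and 576 with RBX. The 7 markers summed to signals of 2960 to 4778 in non-diabetic controls, 7374 to 14809 with RBX, 4604 to 10564 in diabetic controls and 5054 to 9322 with RBX. The amount of adherent tissue on each aorta was not measured.

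**Figure D4:**
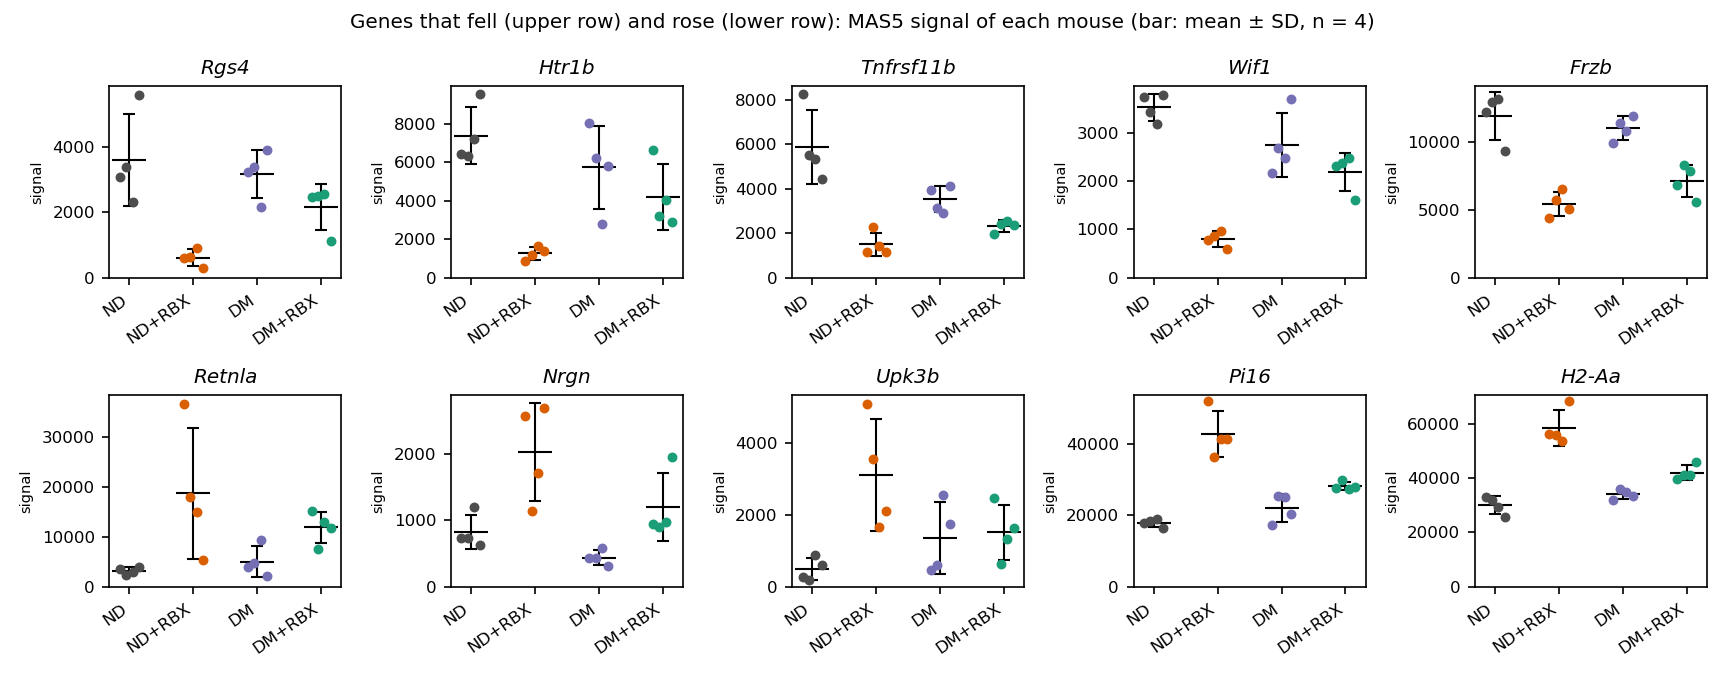
MAS5 signal (y axis, linear) of 5 genes that fell (upper row) and 5 that rose (lower row) in each of the 4 mice per group (ND non-diabetic, DM diabetic); bars are mean ± SD. Tnfrsf11b, Frzb, Pi16 and H2-Aa are separated in both strata, whereas Rgs4, Htr1b, Wif1 and Upk3b are separated only without diabetes.

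The other leading rises had mixed identities. Plxnb3, a semaphorin receptor, rose by 1.53 ± 0.37, Clmn, calmin, by 1.47 ± 0.34, Shmt1, the cytosolic serine hydroxymethyltransferase, by 1.31 ± 0.31, and the ethanol-inducible cytochrome Cyp2e1 by 1.13 ± 0.32, all with overlapping groups in both strata. Mean signals of Plxnb3 were 288 in non-diabetic and 279 in diabetic controls, and 838 and 551 with RBX. For Clmn they were 207.5 and 333 in controls, and 896 and 610 with RBX. These control means lay under the filter signal of 383, so both genes met the filter only through their RBX groups. The other probe set of Plxnb3, under the filter, gave 0.083 (limma unadjusted p = 0.882). The cell adhesion protein Opcml rose by 1.27 ± 0.28, and its other measured probe set gave 0.355 (limma unadjusted p = 0.184). Dnajc17, a nuclear J-domain protein tied to splicing, rose by 1.31 ± 0.17 with no overlap in either stratum and a larger non-diabetic difference (interaction adjusted p = 0.0062). Smim22 rose by 1.36 ± 0.47 and lost its call in 13 of 16 fits with 1 array left out. Pnisr, a splicing-associated protein, rose by 1.20 ± 0.17 on its brightest probe set, while 4 of its other probe sets moved in the opposite direction, 2 of them at unadjusted p-values of 0.000415 and 0.00516.

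Resident adventitial macrophages, the LYVE1-bearing macrophages of the outer wall, were represented by 13 measured markers. Of these 8 rose (61.5%, against 8.48% of all genes) and 0 fell (against 8.25%). The hyaluronan receptor Lyve1 had signals of 1971, 2079, 2212 and 1882 in the untreated non-diabetic mice, 8793, 3979, 3823 and 4553 with RBX, 3489, 3488, 4249.8 and 2696 in the untreated diabetic mice and 4727, 4942, 4855 and 5115 with RBX. RBX mice exceeded controls in both strata, with 1 non-diabetic RBX mouse far above the others. Lyve1 rose by 0.90 ± 0.14 (limma adjusted p = 0.000351), the transglutaminase subunit F13a1 by 0.93 ± 0.13, the scavenger receptor Stab1 by 0.68 ± 0.12 and the chemokine Pf4, made by platelets as well, by 0.75 ± 0.09. Mrc1, Cd163, Fcna and Cd209f also rose, by 0.42 to 0.95. In diabetic mice Pf4, Mrc1, Fcna and Cd209f differed by 0.157, 0.073, 0.15 and 0.164, each with a called interaction. For F13a1, Lyve1, Stab1 and Cd163 the diabetic differences were 0.596, 0.514, 0.321 and 0.644, with no called interaction. Fcgrt, Folr2, Ccl8 and Gas6 did not pass, at 0.15, -0.27, -0.20 and -0.07, and Cbr2 passed with opposed directions. The summed signal of the 13 markers ran from 82415 to 100300 in non-diabetic controls, 101956 to 166137 with RBX, 96456 to 118767 in diabetic controls and 114692 to 123413 with RBX. In whole aorta, more cells of a type and more RNA per cell cannot be told apart.

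Class II genes rose among those of antigen presentation. Of 16 measured genes of antigen presentation 9 rose (56.2%, against 8.48% of all genes) and 0 fell (against 8.25%). Their median averaged difference was 0.42. H2-Aa, the alpha chain of the class II molecule I-A, had signals of 33137, 32046, 29461 and 25730.5 in the untreated non-diabetic mice, 56157, 55682, 53482 and 68420.3 with RBX, 31990.1, 35844, 34958 and 33312 in the untreated diabetic mice and 39553, 41172, 41009.9 and 45945 with RBX. Every RBX mouse exceeded every control of its stratum. H2-Aa rose by 0.63 ± 0.07 (limma adjusted p = 4.26e-05), with 0.96 and 0.30 by stratum (interaction adjusted p = 0.00532). The beta chains H2-Ab1 and H2-Eb1 rose by 0.68 ± 0.09 and 0.45 ± 0.08 and the invariant chain Cd74 by 0.46 ± 0.07. H2-DMa, which loads peptide on class II, the class I activator Nlrc5 and the class I pathway members Psmb9, Tap1 and Tapbp completed the 9. The class I genes Psmb8, B2m and H2-K1 passed the averaged test with opposed directions and were not kept.

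Interferon response genes numbered 28 measured, with 9 rises (32.1%, against 8.48% of all genes) and 0 falls (against 8.25%). Without diabetic mouse 1 there were 5 rises. The median difference of the 28 was 0.64 in non-diabetic and -0.0050 in diabetic mice. A called interaction was found in 10 of the 28, against 11.5% of all genes tested. The GTPase Iigp1 rose by 0.53 ± 0.08, the RNA sensor Ifih1 by 0.41 ± 0.07, Oasl2 by 0.64 ± 0.12 and Ifi35 by 0.27 ± 0.05, and all 4 had a called interaction, with diabetic differences of 0.05, 0.03, 0.10 and 0.05. The other probe sets of Ifi35 gave -0.18 and -0.11.

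Endothelial markers gave 11 rises among 24 measured (45.8%, against 8.48% of all genes) and 0 falls (against 8.25%). Their median was 0.76 in non-diabetic and 0.037 in diabetic mice. Egfl7, secreted by endothelium, rose by 0.64 ± 0.12, the tight junction protein Cldn5 by 0.43 ± 0.09 and the diaphragm protein Plvap by 0.53 ± 0.12. Eng and Nos3, the endothelial nitric oxide synthase, passed at 0.50 ± 0.11 and 0.43 with opposed directions and were not kept, as did Ecscr and Esam. Pecam1 and Cdh5, which define the cell type, did not pass, with 0.078 and 0.37. The count was 6 without diabetic mouse 2 and 6 in an additive model of diabetes and RBX. The summed signal of the 24 markers ran from 103231 to 122255 in non-diabetic controls, 163918 to 218839 with RBX, 123235 to 178024 in diabetic controls and 144596 to 162334 with RBX.

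Adventitial fibroblasts gave 6 rises (37.5%, against 8.48% of all genes) and 1 fall (6.25%, against 8.25%) among 16 measured markers. Pi16, a marker of adventitial progenitor-like fibroblasts, had signals of 17829, 18417, 18951 and 16465 in the untreated non-diabetic mice, 52038, 36529.8, 41517 and 41530.3 with RBX, 17407, 25493, 25271 and 20377 in the untreated diabetic mice and 27648, 30057, 27306 and 28010.4 with RBX. The groups did not overlap in either stratum, and the diabetic RBX mice lay within a narrow range. Pi16 rose by 0.81 ± 0.09 (limma adjusted p = 3.59e-05), more without diabetes (interaction adjusted p = 0.00318). Dermatopontin, Dpt, rose by 0.68 ± 0.10 with no overlap in either stratum and gelsolin, Gsn, by 0.52 ± 0.08, while the collagen crosslinker Lox fell by 0.57 ± 0.11. Igfbp6, Pcolce and Dcn also rose, by 0.38 to 0.59. Dpp4, Cd248, Mfap5 and Lum did not pass, at 0.54, 0.24, 0.11 and -0.305, each with opposed directions in the strata. Pdgfra, Clec3b, Fbln1, Col14a1 and Serpinf1 did not pass either, at 0.19 to 0.32. The count of rises was 11 without non-diabetic RBX mouse 4. The 16 markers summed to 454339 to 593700 in non-diabetic controls, 528750 to 794288 with RBX, 499350 to 621412 in diabetic controls and 610017 to 714169 with RBX. Lymphocyte and natural killer markers were sparse, with 6 of 22 measured and 2 rises (33.3%, against 8.48% of all genes). Granzyme Gzma rose by 0.95 ± 0.25 and Klrd1 by 0.66 ± 0.22, the latter lost in 11 of 16 fits with 1 array left out. The summed signal of the 6 ran from 10563 to 62298 in non-diabetic controls and 13031 to 27989 with RBX. In diabetic mice it ran from 10704 to 19223 without and 14540 to 15657 with RBX. Ighm, which 2 non-diabetic controls held at 44845 and 52138 against 926 to 2270 in the other 14 mice, did not pass.

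The count for cytosolic ribosomal proteins depended on the normalization. Of 21 measured genes 12 rose (57.1%, against 8.48% of all genes) and 0 fell (against 8.25%) as deposited. After quantile normalization 1 rose. Rps15 rose by 0.59 ± 0.07, Rps24 by 0.41 ± 0.08, Rpl4 by 0.33 ± 0.07 and Rpl38 by 0.37 ± 0.07 on the deposited scale, with diabetic differences of 0.20, 0.16, 0.09 and 0.15. Another probe set of Rps24 gave -0.49 (unadjusted p = 0.00816).

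**Figure D5:**
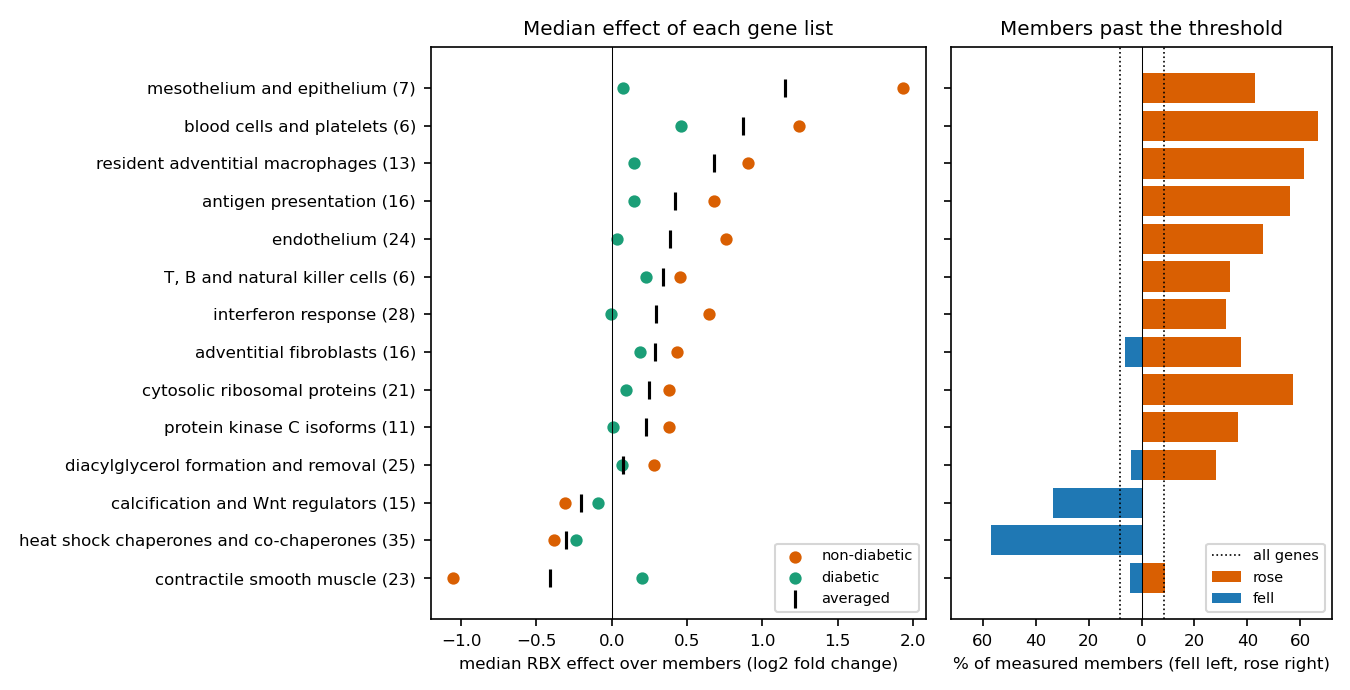
For 14 gene lists (number measured in brackets), the left panel gives the median RBX effect over members as log2 fold change in non-diabetic mice (orange), diabetic mice (green) and averaged (black), and the right panel the percentage of measured members that rose or fell with the same direction in both strata; dotted lines mark 8.48% and 8.25% of all genes. Heat shock chaperones fall in both strata, and contractile smooth muscle has its medians on opposite sides of 0.

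The transcript of the drug's target did not pass the test. Prkcb, which encodes the targeted kinase, had signals of 2396, 2095, 2412 and 1126 in the untreated non-diabetic mice, 2482, 2864, 2801 and 2293 with RBX, 2085, 2081, 2637 and 2482 in the untreated diabetic mice and 2034, 2292, 2278 and 3013 with RBX. The groups overlapped in both strata. Its averaged difference of 0.24 ± 0.14 did not pass (limma adjusted p = 0.237). Another measured probe set of Prkcb gave a difference of 0.33 with an unadjusted p of 0.0304. An enzyme inhibitor need not alter the transcript of its target. Of 11 measured genes of the protein kinase C family and relatives 4 rose (36.4%, against 8.48% of all genes). These were Prkch by 0.47 ± 0.10, Pkn3 by 0.40 ± 0.12, Prkd2 by 0.32 ± 0.10 and Prkd3 by 0.23 ± 0.08. Prkd2 and Prkd3 each lost the call in 11 of 16 fits with 1 array left out. In diabetic mice the differences were 0.006 for Prkch, 0.155 for Pkn3, 0.081 for Prkd2 and 0.073 for Prkd3. Other measured probe sets gave averaged differences of 0.154 for Prkch, 0.083 to 0.435 for Prkd2 and -0.105 for Prkd3. The count of rises was 1 without non-diabetic mouse 2, diabetic mouse 1 or diabetic RBX mouse 2. It was 2 without any of 6 other arrays, and 0 in the additive model.

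Genes that form or remove diacylglycerol, the activator of the kinase, numbered 25 measured. They gave 7 rises (28%, against 8.48% of all genes) and 1 fall (4%, against 8.25%). Dgkz, a diacylglycerol kinase that converts the lipid to phosphatidic acid, had signals of 8751, 8764, 10124 and 9267 in the untreated non-diabetic mice, 15962, 14779, 14740.2 and 13295 with RBX, 9709, 9526, 11385 and 10359 in the untreated diabetic mice and 10402, 10956, 11724 and 14853 with RBX. RBX mice exceeded controls without diabetes and overlapped them with diabetes. Dgkz rose by 0.44 ± 0.07 (limma adjusted p = 0.000692) and Dgka, a second such kinase, by 0.32. Of the phospholipases C, which release diacylglycerol, Plcb2, Plcg1 and Plcd3 rose by 1.03, 0.34 and 0.45, and Plcb1 fell by 0.43 ± 0.08, a fall limited to non-diabetic mice (-0.84 against -0.02, interaction adjusted p = 0.00259). Agpat1 and Lpin1, enzymes of the synthetic route, rose by 0.47 and 0.51. Plcb4, Mgll and the lipid phosphatase Plpp1 passed with opposed directions. With non-diabetic mouse 4 or diabetic mouse 4 left out, 4 members rose.

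Contractile smooth muscle had the most opposed calls of the 42 gene lists. Of 23 measured only 5 had the same direction in both strata, against 6099 of 11036 genes tested. Of the 23, 12 passed the averaged test with opposed directions, against 352 of 11036. The median was -1.05 in non-diabetic and 0.20 in diabetic mice, and the averaged median of -0.41 was 0.064 with the cre covariate. The summed signal of the 23 markers ran from 1005801 to 1089323 in non-diabetic controls and 613395 to 910230 with RBX. In diabetic mice it ran from 810620 to 971887 without and 962374 to 1115346 with RBX. Smtn, smoothelin, fell by 0.98 ± 0.20 with a diabetic difference of -0.08, and Tpm2 and Acta2 rose by 0.28 ± 0.06 and 0.30. After quantile normalization neither rise was kept as a call. Ldb3 and Itga8 differed by -2.45 and -1.18 without diabetes and by 0.20 and 0.13 with it, and their interactions passed (adjusted p = 0.000178 and 0.00226). The other measured probe sets of Ldb3 gave averaged differences of -0.252 and -0.249, against -1.124 on the probe set used. That of Itga8 gave -1.513 against -0.526, and those of Tpm2 gave -0.138, 0.063 and 0.065.

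A stricter reading asked for an unadjusted p under 0.05 in each stratum beside the averaged call, and 400 genes met it, 202 risen (1.83%) and 198 fallen (1.79%). In 98 genes (0.888%) every RBX mouse exceeded every control of its stratum, and in 103 (0.933%) every RBX mouse lay below. Of these 200 were called and kept. By smallest averaged p they were led by Hspa1b, Mmp23, Pi16, Hspa1a, Pdgfc, H2-Aa, Son, Frzb, Tnfrsf11b and Rpsa, a selection made after the values were seen.

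Those not yet described covered a metalloproteinase, a growth factor, a nuclear protein and a ribosomal protein. Mmp23, a membrane-anchored metalloproteinase, had signals of 8071, 8131, 7932 and 7935 in the untreated non-diabetic mice, 14756, 15384, 14596 and 15498 with RBX, 9355, 10343, 9877 and 7903 in the untreated diabetic mice and 11288, 12222, 12047 and 10969 with RBX. The 4 untreated non-diabetic mice lay within a narrow range. Mmp23 rose by 0.61 ± 0.06 (limma adjusted p = 1.93e-05), while its other probe set gave 0.054. Pdgfc, a platelet-derived growth factor that drives smooth muscle cells and fibroblasts, had signals of 13116, 12837, 12996 and 11666 in the untreated non-diabetic mice, 5226, 7152, 6139.8 and 5735 with RBX, 10961, 12576, 9423 and 9901 in the untreated diabetic mice and 7136, 7721, 9380.1 and 7529 with RBX. RBX mice were below all controls in both strata, and deeper without diabetes (interaction adjusted p = 0.0166). Pdgfc fell by 0.75 ± 0.08 (limma adjusted p = 3.77e-05). Rpsa, the ribosomal protein SA, rose by 0.65 ± 0.07.

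Son, a large nuclear speckle protein needed for splicing, had signals of 23510.2, 23131, 22352 and 22332 in the untreated non-diabetic mice, 34616, 35626, 30089.5 and 38884 with RBX, 27149, 27136, 25569.5 and 24355 in the untreated diabetic mice and 34306, 38762, 34463 and 38282 with RBX. RBX mice were higher in both strata, at 0.48 in diabetic and 0.60 in non-diabetic mice. Son rose by 0.54 ± 0.06 on this probe set (limma adjusted p = 4.48e-05), but 5 of its other probe sets moved in the opposite direction, 3 of them at an unadjusted p under 0.05.

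At the threshold, the genes just inside were Snord104 at 0.28 ± 0.10 and Stfa3 at -0.78 ± 0.27, both with an adjusted p of 0.0499. Just outside lay Ttll1 at -0.26 ± 0.09 and Cep76 at -0.51 ± 0.18, both at 0.0501. All 4 crossed the threshold in some fits with 1 array left out.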

How the data were processed

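Whole aortas of 16 mice were measured on 1 Affymetrix array each, with total RNA extracted with Trizol per the labels' protocols. The deposited values were linear intensity for 45101 probe sets, made with MAS5 per the submitters' processing notes (version not given in the sources used here) and scaled by the authors to 1 trimmed mean of 1500.01, leaving out 2% at each end. Such scaling fixes the array average, so changes are read against it. Detection calls were not used here. The number of arrays limits precision, and no 2 arrays were identical.

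Values were taken to log2. Symbols came from GEO's platform annotation, checked against RefSeq (99.4% of them found): 34945 probe sets had 1 symbol, 932 several and 9160 none. Probe sets above the median mean (signal 383) were kept, and the brightest per gene was used, giving 11036 of 18193 genes. With limma 3.58.1 (R 4.3.3, data.table version 1.17.8), 4 group means were fitted to all 16 arrays (12 residual and 6.21 prior degrees of freedom, intensity trend). Benjamini-Hochberg adjustment of the two-sided p-values ran over all 11036 genes, with 0.05 as the threshold. The procedure was run on simulated data with independent noise and equal RBX effects in both strata. That simulation held no difference between arrays in quality or labelling, so it does not test the calls under such differences. Labels give individual mice as replicates.

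Named genes were Prkcb, the 15 largest kept rises and the 15 largest kept falls that are not clones (34 kept calls were clones), up to 4 members of smallest p from each described list, and those at the threshold. All called heat shock genes and the 10 genes leading the no-overlap set were added after seeing the data. The members and the 42 gene lists (13 of cell types, 29 of pathways) were chosen with earlier results of these data known; 14 lists are described in the results, most because about 30% or more of their measured members were called in 1 direction, and 4 with smaller shares under the other observations. Of the 104 genes in all, 48 had another measured probe set; 74 of 93 such probe sets moved the same way and 7 against it with unadjusted p-values under 0.05. Probe sets marked x or s can read related transcripts. Alternatives tried were no filter or one at the 70th percentile, quantile normalization, the 75th percentile as centre, an offset of 30.5, the mean over probe sets, all probe sets apart, no trend, robust variance, array weights, a replicate block, cre and Actb covariates, an additive model and each array left out.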

Additional observations from a re-analysis of the deposited data

Results flagged for a closer look

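The RBX effect differed between diabetic and non-diabetic mice in 37 of the 104 genes examined (limma interaction test, adjusted p under 0.05). Over all genes tested 1273 of 11036 (11.5%) passed. The 104 were largely chosen by the size or p of the averaged effect. Each value below is the effect in diabetic minus that in non-diabetic mice on the log2 scale. Among falls that were deeper without diabetes it was 1.99 for Rgs4, 2.13 for Htr1b, 1.40 for Tnfrsf11b, 1.84 for Wif1, 2.3 for Chmp4c, 1.82 for Kcnj15, 1.58 for Abat, 1.09 for Lox, 0.64 for Pdgfc and 0.82 for Plcb1. For heat shock genes it was 0.96 for Dnajb4, 2.18 for Hspb1 and -0.58 for Dnajb1, the fall of which was deeper with diabetes. For smooth muscle genes it was 2.65 for Ldb3, 1.81 for Smtn and 1.31 for Itga8, and for the phospholipase Plcb4 it was 1.38. Among genes with a higher difference without diabetes it was -1.62 for Dnajc17, -2.20 for Lrrn4, -0.92 for Prkch, -1.18 for Pf4, -0.88 for Pi16, -0.65 for Gsn, -0.59 for Mmp23 and -1.08 for Egfl7. Mgll and Eng were higher under RBX without diabetes and slightly lower with it, so they were not kept, and the value was -0.95 for Mgll and -1.16 for Eng. For class II genes it was -0.66 for H2-Aa and -0.90 for H2-Ab1. For interferon response genes it was -0.96 for Iigp1, -0.76 for Ifih1, -0.44 for Ifi35 and -1.07 for Oasl2. For ribosomal proteins it was -0.79 for Rps15, -0.51 for Rps24, -0.48 for Rpl4 and -0.84 for Rpsa.

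In 24 of 416 groups of 4 mice examined, 1 mouse lay far from the other 3, and chance alone marks about 1 in 20 such groups. In non-diabetic controls these were mouse 3 for Opcml (114.2), Kcnj15 (4451), Il7r (11705), Ahsa1 (5990.3) and Rpsa (91054), and mouse 4 for Prg4 (5735) and Cep76 (683). In non-diabetic RBX mice they were mouse 4 for Smim22 (819), Dnajc17 (17097) and Klrd1 (1987), and mouse 1 for Hspa1b (5336) and Lyve1 (8793). In diabetic controls they were mouse 1 for H2-Ab1 (7199), mouse 3 for Ppbp (1566) and mouse 4 for Tpm2 (90793) and Snord104 (1396). In diabetic RBX mice they were mouse 4 for Nrgn (1965), Rgs4 (1125), Mmp13 (1326), Gsn (147132) and Cacybp (4524), mouse 1 for S100a8 (3058), and mouse 2 for Eng (5112) and Rpsa (124496).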

How the results depend on the processing

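Kept calls numbered 936 risen and 911 fallen, and the split stayed within 10 percentage points of 50.7% risen in all fits without covariates. With the cre covariate they were 5 and 7, and with the Actb covariate 0 and 0, with the larger standard errors given above. The additive model gave 617 risen, all probe sets apart 1537 fallen, and a further demand for an unadjusted p under 0.05 in each stratum 400 in all. Leaving out each array in turn gave 719 to 994 risen and 691 to 997 fallen.

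The interaction count of 1273 was 0 with cre, 341 with Actb and 772 to 1529 with 1 array left out. The 5 calls in diabetic mice were 15 with quantile normalization, 13 with the 70th percentile filter, 2 with the mean over probe sets, 8 with all probe sets apart, 1 without the intensity trend, 36 with array weights, 16 with cre, 1 with Actb and 1 to 15 with 1 array left out. The 3493 calls in non-diabetic mice were 5348 with all probe sets apart, 0 with cre and 174 with Actb. Heat shock falls were 1 with cre, 0 with Actb and 12 to 21 with 1 array left out. With the replicate block 926 genes rose and 889 fell; same-numbered mice did not deviate together (correlations -0.137 to 0.0528), so the numbers do not pair them.

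Of 92 named genes called, 65 kept the call in each of the 28 settings without covariates that tested them (the 70th percentile filter tested 73 of the 92) and 75 with each array left out. Directions reversed with quantile normalization for Tpm2 (-0.001), with the mean over probe sets for Ifi35 (-0.009), Fkbp4 (0.036) and Son (-0.202), with cre for Smtn (0.064), Il7r (-0.332), Ighm (0.843), Ttll1 (0.055), Fkbp4 (0.017) and Hspb1 (0.356), and with Actb for Cyp2e1 (-0.262), Pde3a (0.469), Itga2b (-0.059), Ahsa1 (0.036) and Hspb1 (0.053). The cause of these changes was not tested. Genes under the signal filter, and changes smaller than the spread of 4 mice, could not be read here.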

Other observations

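Beside the cytosolic chaperones, genes of the endoplasmic reticulum stress response fell under RBX in a smaller share, and the genes named here were chosen after their values were seen. Of 29 measured, 5 fell (17.2%, against 8.25% of all genes tested) and 2 rose (6.9%, against 8.48%). The luminal HSP70 Hspa5 fell by 0.33, Manf by 0.57, Herpud1 by 0.57, Dnajb9 by 0.34 and Canx by 0.17, and their diabetic differences of -0.39, -0.65, -0.56, -0.40 and -0.16 were of like size to the non-diabetic ones of -0.26, -0.49, -0.58, -0.27 and -0.17. The share of rises lay below that of all genes. Proteasome subunits gave 4 falls among 27 measured (14.8%, against 8.25% of all genes) and 0 rises. These were Psma1, Psma2, Psma4 and Psmb7, by 0.29 to 0.40.

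Splicing factors gave 7 falls (23.3%, against 8.25%) and 2 rises (6.67%, against 8.48%) among 30 measured. The factors Tra2a and Tra2b fell by 0.34 and 0.32 and Srsf1, Srsf2, Srsf6 and Srsf10 by 0.20 to 0.33, and Hnrnpa2b1 fell by 0.21. Of insulin-like growth factor and insulin signalling genes 7 of 25 rose (28%, against 8.48%) and 1 fell (4%, against 8.25%). The binding proteins Igfbp5, Igfbp4 and Igfbp6 rose by 0.76, 0.38 and 0.59, the growth factors Igf2 and Igf1 by 0.56 and 0.31, Irs2 and Foxo1 by 0.73 and 0.25.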
